A study of Mus musculus with 6 samples.

Results

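Cytochromes P450, glucuronosyltransferases and sulfotransferases are the enzymes that oxidise and then conjugate drugs, steroids, bile acids, retinoids and fatty acids. They were taken from a microarray comparison of Sept4 knockout (KO) and wild-type (WT) mouse hepatic stellate cells as the genes whose platform symbol begins with Cyp and a digit, with Ugt or with Sult. Of 16446 symbols on the arrays, 74 met this rule after 5 P450 genes (Cyp1a1, Cyp1a2, Cyp1b1, Cyp11a1 and Cyp51) had been set aside by name. They comprised 54 P450, 11 Ugt and 9 Sult genes. A gene with several probes was represented by the probe with the highest mean signal, and 72 of the 74 genes had a single probe. There were 3 arrays of stellate cells from KO mice, which lack the septin Sept4, and 3 of stellate cells from WT mice, and both groups had carbon tetrachloride (CCl4)-induced liver cirrhosis. The sources used here give neither the age or strain of the mice nor the cells in which Sept4 was removed, and they leave unstated whether an array is 1 mouse, a pool or a repeat hybridisation, so the p-values measure only how far these arrays vary, which may be technical variation. Nothing says that the genotypes were processed together, so any difference in processing cannot be told apart from genotype.

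P450 enzymes are haem proteins of the endoplasmic reticulum and mitochondria that insert oxygen into lipophilic substrates with electrons from a reductase. Glucuronosyltransferases then attach glucuronic acid, and sulfotransferases attach sulfate, which makes the products soluble enough to excrete. In liver most of these enzymes belong to hepatocytes, and the P450 encoded by Cyp2e1 is known for turning CCl4 into the radical that injures them. Stellate cells, the pericytes that store vitamin A in the liver, carry a smaller set, among them enzymes that act on retinoic acid and sterols.

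Most of the enzymes did not differ between the genotypes beyond the threshold, and those that did were mainly higher in KO cells by less than 2-fold. Of the 74 genes, 21 rose and 4 fell in KO cells at an adjusted p of 0.05 in limma (Benjamini-Hochberg adjustment over all 23473 probes), and 49 did not pass. The 25 calls make 33.8% of the genes, against a background of 42.7% of all probes and 44.3% of all genes with 1 probe each. By direction, 28.4% of the enzymes rose, against 29.4% of all genes, and 5.41% fell, against 14.9% of all genes. The median log2 difference, KO minus WT, was 0.31 over the 74 enzymes and 0.14 over all genes. After quantile normalisation of the deposited values these medians were 0.20 and 0.05, so small differences depend on the scaling. The lowest value was 0.31 to 0.32 on the KO arrays and 0 to 0.22 on the WT arrays. A gene at the lowest value of every array thus has a positive difference and no overlap as deposited. The median of the enzymes was 0.35 below a mean signal of 3, -0.10 from 3 to 5, 0.37 from 5 to 7 and 0.67 above 7. At an unadjusted p of 0.05, 33 enzymes passed, against 51.9% of all genes. The 3 KO values lay wholly above or below the 3 WT values for 35 enzymes, 47.3% of them, against 57.6% of all genes and 56.2% of all probes.

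**Figure D1:**
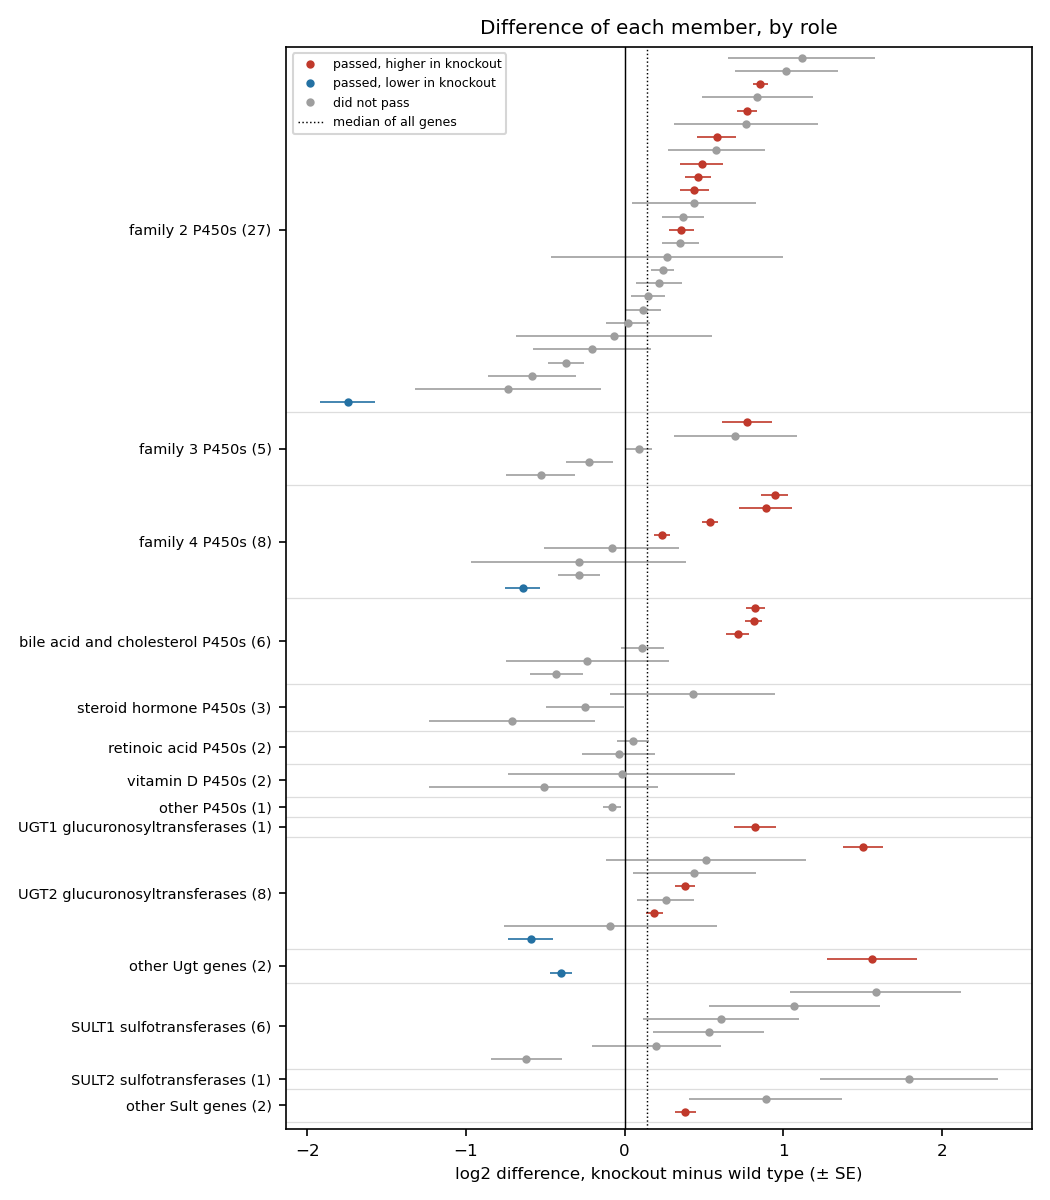
Log2 difference (KO minus WT, x axis, bars ± SE from limma) of each of the 74 enzymes, grouped by role with the number of genes in brackets. Red points passed as higher (21), blue points as lower (4) and grey points did not pass (49), and the dotted line is the median of all genes, 0.14.

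Of the 25 calls 3 reached 2-fold, in Ugt8a, Ugt2b34 and Cyp2c40, which is 4.05% of the 74 enzymes, against 6.4% of all genes. Ugt8a encodes the galactosyltransferase that makes galactosylceramide, the lipid of myelin, rather than a detoxifying enzyme. It had log2 signals of 3.14, 2.82 and 2.69 on the KO arrays and 1.59, 1.63 and 0.75 on the WT arrays. All KO values lay above all WT values, but the WT signal was close to the lowest values of the arrays, which ran between 0 and 0.32. The difference was 1.56 ± 0.28 (SE, n = 3 arrays each; adjusted p = 0.00972 in limma), and it was 0.99 when a constant equal to the 10th percentile of the linear signals was added before taking logs. Ugt2b34, a glucuronosyltransferase of the family that acts on steroids and bile acids, had signals of 6.0, 6.22 and 6.35 on the KO arrays and 4.51, 4.74 and 4.81 on the WT arrays. The KO arrays were thus higher by 1.50 ± 0.13 (SE), or 2.83-fold (adjusted p = 0.00103). Cyp2c40, whose product hydroxylates arachidonic acid in the mouse, went the other way. Its signals were 3.49, 2.88 and 3.11 on the KO arrays and 5.03, 4.84 and 4.85 on the WT arrays, a fall by 1.74 ± 0.17 (SE; adjusted p = 0.0015) with no overlap between the genotypes.

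The 250 bases upstream of the annotated start of these 3 genes are shown because their differences were the largest among the calls, beside those of Ugt2b1, which lies next to Ugt2b34 among the measured Ugt2 genes and fell where Ugt2b34 rose. They are RefSeq promoter sequences of mouse build GRCm38.p6, written 5′ to 3′ on the strand of the gene, with the last base next to the start. Each was searched for TATAAA on the strand of the gene, and for AGGTCA (the half-site bound by many nuclear receptors), GCGTG (the core bound by the aryl hydrocarbon receptor) and TGACNNNGC (the core bound by Nrf2) on both strands. Capitals mark a match, and among these 4 windows there is 1, a GCGTG that begins 180 bases before the start of Ugt8a.
Ugt2b34 (chr5:86906938-86907187, minus strand): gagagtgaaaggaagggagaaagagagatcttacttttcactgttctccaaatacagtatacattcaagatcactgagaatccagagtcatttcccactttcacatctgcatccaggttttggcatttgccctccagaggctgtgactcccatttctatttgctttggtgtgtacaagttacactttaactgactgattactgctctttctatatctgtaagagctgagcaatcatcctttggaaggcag
Ugt2b1 (chr5:86926504-86926753, minus strand): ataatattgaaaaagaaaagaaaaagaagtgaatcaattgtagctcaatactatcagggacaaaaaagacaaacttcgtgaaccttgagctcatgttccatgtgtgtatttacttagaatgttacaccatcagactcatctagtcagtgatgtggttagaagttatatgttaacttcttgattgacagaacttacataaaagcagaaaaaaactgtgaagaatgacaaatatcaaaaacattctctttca
Cyp2c40 (chr19:39812815-39813064, minus strand): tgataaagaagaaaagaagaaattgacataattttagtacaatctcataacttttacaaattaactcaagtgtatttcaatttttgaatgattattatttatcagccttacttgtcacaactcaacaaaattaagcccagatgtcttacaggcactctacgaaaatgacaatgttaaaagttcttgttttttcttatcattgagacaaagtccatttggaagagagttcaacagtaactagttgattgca
Ugt8a (chr3:125938653-125938902, minus strand): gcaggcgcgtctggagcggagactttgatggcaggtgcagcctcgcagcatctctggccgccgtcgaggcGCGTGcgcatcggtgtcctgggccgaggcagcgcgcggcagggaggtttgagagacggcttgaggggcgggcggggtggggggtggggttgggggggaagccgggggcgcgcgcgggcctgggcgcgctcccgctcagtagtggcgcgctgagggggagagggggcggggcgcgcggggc
Over the 58 enzymes with such a promoter sequence, AGGTCA was in the window of 16 (27.6%, against 15.8% of 26994 genes) and GCGTG in that of 11 (19%, against 30.8%). TGACNNNGC was in 3 windows, or 5.17% against 11.5% of genes, and TATAAA in 13, or 22.4% against 8.94%. AGGTCA was found in 5 of 18 enzymes that rose (Cyp2b13, Cyp2c39, Cyp3a25, Ugt2b35 and Ugt2b5) and in 11 of 38 that did not pass, or 27.8% and 28.9%. TATAAA was found in 1 of the 18 (Cyp2a5) and in 12 of the 38, among them Cyp2e1 and Cyp3a11. The motifs were chosen after the differences were known, and a match or its absence in this window says nothing about binding.

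The family 2 P450s, the largest group of drug- and arachidonic acid-oxidising enzymes, counted 7 genes that rose and 1 that fell, Cyp2c40, among 27 measured, which is 29.6% called, against 44.3% of all genes. Cyp2a5, whose product oxidises coumarin and nicotine, had signals of 8.52, 8.55 and 8.54 on the KO arrays and 7.70, 7.72 and 7.64 on the WT arrays. This was the tightest of the calls in the family, with a difference of 0.85 ± 0.05 (SE) and an adjusted p of 0.000513. Cyp2j9, of the arachidonic acid-metabolising J subfamily, had signals of 5.45, 5.51 and 5.32 in KO cells against 4.63, 4.65 and 4.69 in WT cells and rose by 0.77. Cyp2b13 rose by 0.46 on its brightest probe, with signals of 6.26 to 6.48 in KO cells and 5.83 to 5.98 in WT cells, and its other probes rose by 0.40 and, at a dimmer signal, by 1.16. All 3 Cyp2b13 probes thus passed in the same direction, but differed in size. The fatty acid hydroxylase gene Cyp2u1 rose by 0.58, Cyp2c39, whose product acts on retinoic acid in mouse liver, by 0.49, Cyp2d26 by 0.44 and Cyp2c44, an arachidonic acid epoxygenase now named Cyp2c23, by 0.36.

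These last 4 calls were each lost in at least 1 fit without a single array. Cyp2u1 did not pass without KO array 2, WT array 2 or WT array 3, with adjusted p-values in limma of 0.0544, 0.0600 and 0.0518. Cyp2c39 passed in 1 of the 6 such fits, the one without WT array 1, and had adjusted p-values of 0.0569 to 0.104 in the others. Cyp2d26 did not pass without KO array 2 (adjusted p = 0.0504), nor Cyp2c44 without WT array 2 (0.0677) or WT array 3 (0.0627). The directions were the same in these fits.

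Of the family 2 genes that did not pass, Cyp2e1 bears on the injury model. Its signals were 5.31, 5.22 and 5.47 on the KO arrays and 5.22, 5.02 and 5.32 on the WT arrays, so the genotypes overlapped. The difference was 0.14, with a 95% confidence interval of -0.13 to 0.42. Cyp2f2 and Cyp2g1, known for activity in airway and olfactory epithelium, differed by 0.12 and 0.02, with intervals of -0.18 to 0.41 and -0.33 to 0.38. Cyp2r1, which hydroxylates vitamin D in the liver, had signals of 4.50, 4.40 and 3.96 in KO cells and 4.16, 3.17 and 3.03 in WT cells, and its interval ran from -0.06 to 1.73. Cyp2a12, the neighbour of Cyp2a5 in chromosomal order, had lower signals on all 3 KO arrays (4.33 to 4.59) than on the WT arrays (4.63 to 4.95), with an adjusted p of 0.0519 in limma. Cyp2j13 lay at the lowest value of 5 of the 6 arrays and Cyp2c55 of 4, so their levels are only bounds.

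**Figure D2:**
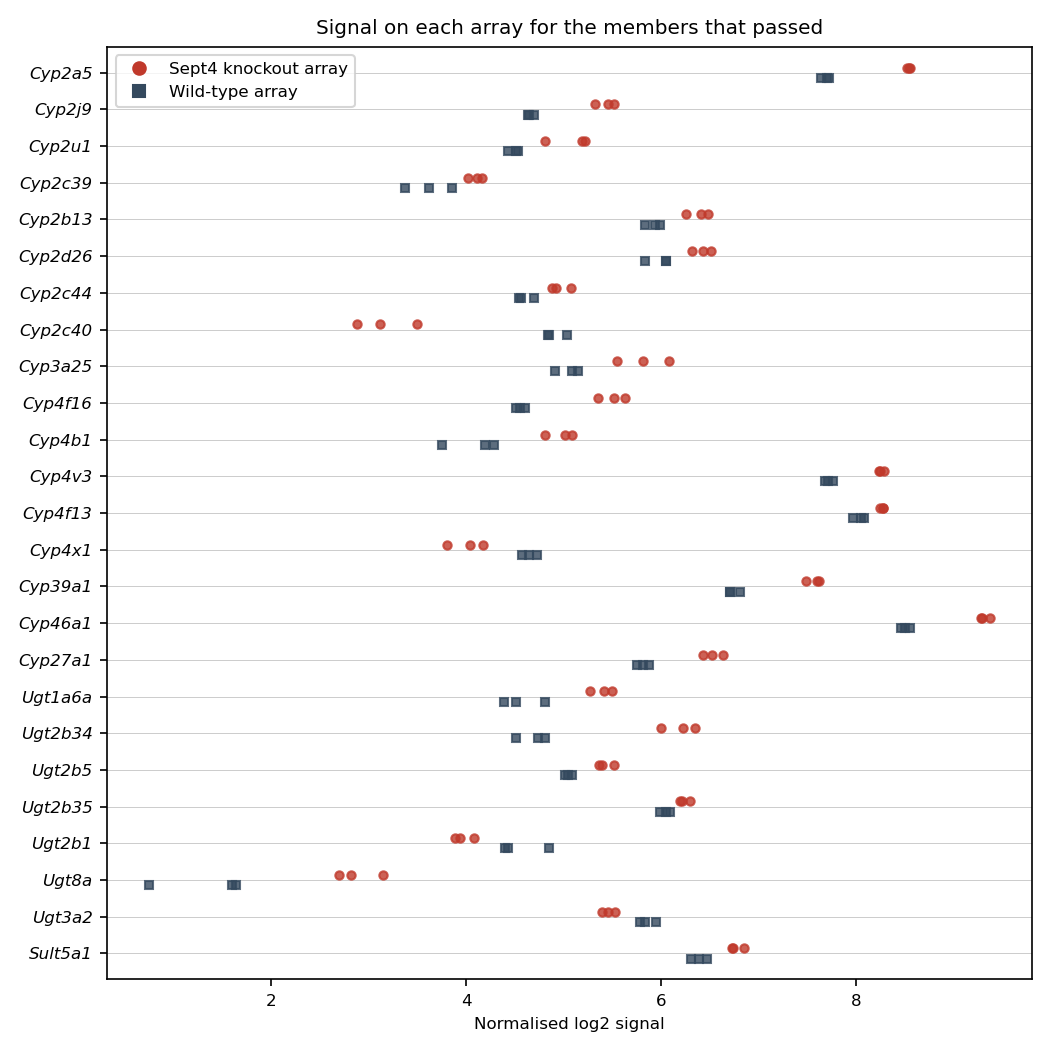
Normalised log2 signal (x axis) on each KO array (red circles) and each WT array (dark squares) for the 25 enzymes that passed, ordered by role. The KO values lie above the WT values in 21 genes and below them in Cyp2c40, Cyp4x1, Ugt2b1 and Ugt3a2, with no overlap in any of the 25.

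Of 5 family 3 P450s, the main drug oxidases of the liver, only Cyp3a25 passed (20%, against 44.3% of all genes). Its signals were 6.08, 5.55 and 5.81 on the KO arrays and 4.91, 5.08 and 5.15 on the WT arrays, a difference of 0.77 ± 0.16 (SE; adjusted p = 0.0133). Cyp3a16 had the next smallest p, with signals of 2.84, 3.08 and 3.47 in KO cells and 3.52, 3.97 and 3.49 in WT cells, a difference of -0.53 with an interval of -1.08 to 0.03. Cyp3a11, the form most strongly induced by drugs through the pregnane X receptor, had 2.63, 2.99 and 3.89 in KO cells against 2.53, 2.82 and 2.07 in WT cells, and the genotypes overlapped. The genes of this family and of the Cyp2c and Ugt2 families are close in sequence. Which transcripts a probe can bind was not analysed here for any of the 74 genes, those of other families included.

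Family 4 P450s, which hydroxylate the ends of fatty acids and eicosanoids, had 4 genes that rose and 1 that fell among 8, or 62.5%, against 44.3% of all genes. Cyp4v3, the mouse counterpart of the human fatty acid hydroxylase CYP4V2, had signals of 8.24, 8.28 and 8.25 on the KO arrays and 7.77, 7.68 and 7.71 on the WT arrays, a difference of 0.54 ± 0.05 (SE; adjusted p = 0.00115). Cyp4f16, of the subfamily that inactivates leukotrienes, had 5.63, 5.35 and 5.51 in KO cells against 4.60, 4.55 and 4.51 in WT cells, and rose by 0.94. Its other probe rose by 0.40. Cyp4b1, best known from lung, rose by 0.89 and Cyp4f13 by 0.23. Cyp4f13 was no longer called after quantile normalisation (0.13, adjusted p = 0.0553), nor without KO array 1, KO array 2 or WT array 2 (adjusted p-values of 0.0522, 0.0639 and 0.0569). Cyp4x1, a family member known from brain, fell by 0.64, with signals of 4.04, 3.80 and 4.17 in KO cells and 4.73, 4.58 and 4.64 in WT cells. Cyp4a14, a classical target of the fatty acid receptor PPAR alpha, ranged between 1.21 and 2.17 in KO cells and between 0.58 and 2.89 in WT cells.

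Among 6 P450s of cholesterol and bile acid metabolism, 3 rose and none fell at the threshold, a share of 50% that is near the 44.3% of all genes. Cyp46a1, the cholesterol hydroxylase known from neurons, had signals of 9.28, 9.29 and 9.37 on the KO arrays and 8.55, 8.50 and 8.46 on the WT arrays, a difference of 0.81 ± 0.05 (SE; adjusted p = 0.000644). Cyp39a1, which hydroxylates the oxysterol that Cyp46a1 makes, had 7.60, 7.48 and 7.62 in KO cells against 6.71, 6.71 and 6.80 in WT cells, and rose by 0.82 (adjusted p = 0.000791). Cyp27a1, the mitochondrial sterol hydroxylase of the alternative bile acid pathway, rose by 0.71, with 6.43, 6.52 and 6.63 against 5.88, 5.81 and 5.75 in WT cells. Each of these 3 rose by between 1.64-fold and 1.77-fold. The other members are the hepatocyte enzyme Cyp7a1, rate-limiting in bile acid synthesis, Cyp8b1, which sets the amount of cholic acid, and the oxysterol hydroxylase Cyp7b1. Cyp7a1 differed by -0.43, with an interval of -0.86 to 0.0013, and Cyp8b1 was dim, at 0.88 to 1.96 in KO cells and 1.02 to 2.63 in WT cells. Cyp7b1 had signals of 5.58, 5.47 and 5.60 in KO cells and 5.26, 5.34 and 5.71 in WT cells, so the genotypes overlapped.

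None of the 3 steroid hormone, 2 retinoic acid and 2 vitamin D P450s passed in limma, and none of these 7 reached an unadjusted p of 0.05. Cyp21a1, of adrenal steroid synthesis, had signals of 0.32, 0.39 and 0.46 in KO cells and 0.88, 2.21 and 0.22 in WT cells, and Cyp17a1, of androgen synthesis, 3.05, 3.03 and 3.52 against 3.08, 3.84 and 3.44 in WT cells. Both overlapped between the genotypes. The retinoic acid hydroxylase gene Cyp26a1 had 6.20, 6.50 and 6.53 in KO cells and 6.39, 6.35 and 6.32 in WT cells, with an interval of -0.20 to 0.31. Its relative Cyp26b1 had 2.67, 2.95 and 2.63 in KO cells and 2.42, 2.72 and 3.22 in WT cells, with an interval of -0.63 to 0.55. Differences of 2-fold thus lay outside the intervals of both retinoic acid hydroxylases. The vitamin D genes were dimmer and less precise. Cyp27b1, which activates vitamin D, had 3.04, 2.97 and 0.69 in KO cells and 2.20, 1.88 and 2.67 in WT cells, and Cyp24a1, which inactivates it, 1.98, 0.31 and 2.17 in KO cells and 1.04, 1.96 and 2.99 in WT cells. Their intervals, -1.85 to 1.81 and -2.36 to 1.34, allow more than a 2-fold difference either way. Cyp20a1, a P450 with no settled substrate, had the highest signal of the 74 probes, with 10.01, 10.14 and 10.11 in KO cells and 10.18, 10.20 and 10.13 in WT cells. It did not pass as deposited (-0.08, adjusted p = 0.327), but was called lower after quantile normalisation (-0.26, adjusted p = 0.00941). Next in signal to Cyp20a1 came Cyp46a1, Cyp4f13, Cyp2a5 and Cyp4v3, all 4 of them higher in KO cells as described above. A signal also reflects the probe, so this order is not one of transcript abundance.

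Of the 11 Ugt genes, 5 rose and 2 fell, which is 63.6%, against 44.3% of all genes. In addition to Ugt8a and Ugt2b34, the rises were Ugt1a6a, Ugt2b5 and Ugt2b35. Ugt1a6a, which conjugates small phenols and is the only gene of the Ugt1 locus among the probes used, had signals of 5.41, 5.49 and 5.27 on the KO arrays and 4.81, 4.51 and 4.38 on the WT arrays, a difference of 0.82 ± 0.13 (SE; adjusted p = 0.00638). Ugt2b5 rose by 0.38, with 5.40, 5.36 and 5.52 in KO cells and 5.04, 5.09 and 5.01 in WT cells. Ugt2b35 rose by only 0.19 and lost its call after quantile normalisation (0.14, adjusted p = 0.101) and in each of the 6 fits without 1 array, at adjusted p-values of up to 0.120. Ugt2b1 fell by 0.59, with 4.08, 3.88 and 3.93 in KO cells and 4.85, 4.43 and 4.40 in WT cells, and was not called without KO array 2 (adjusted p = 0.0749) or KO array 3 (adjusted p = 0.0700). Ugt3a2, of a small family whose human members use other sugars than glucuronic acid, fell by 0.40, with 5.45, 5.39 and 5.53 in KO cells and 5.95, 5.79 and 5.84 in WT cells. Ugt2b37, Ugt2b38, Ugt2a1 and Ugt2a3 did not pass, and Ugt2a1 and Ugt2a3 each lay at the lowest value on 3 of the 6 arrays.

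Called genes of both directions lay in the Ugt2 cluster and in the Cyp2c cluster. In the order of the measured Ugt2 genes on chromosome 5, Ugt2b34 (1.50) is followed by Ugt2b1 (-0.59), Ugt2b35 (0.19) and Ugt2b5 (0.38). On chromosome 19 Cyp2c40 (-1.74) lies after Cyp2c39 (0.49), with the uncalled Cyp2c38 between them, in a row of 9 measured Cyp2c genes. Of these 9, 6 did not pass. On chromosome 7 Cyp2a5 (0.85) and Cyp2b13 (0.46) were called among 7 genes of the Cyp2a, Cyp2b, Cyp2f, Cyp2g and Cyp2s families, and on chromosome 5 Cyp3a25 alone was called among 5 Cyp3a genes. All 4 measured Cyp2j genes on chromosome 4 had positive differences as deposited, of 0.24, 0.37, 0.77 and 1.11. Only Cyp2j9 (0.77) was called. The 0.24 belongs to Cyp2j13, which lay at the lowest value of 2 KO and 3 WT arrays. Those lowest values were higher on the KO arrays. Its difference was 0.02 when quantile normalised and -0.10 under cyclic loess, so the sign for Cyp2j13 depends on the scaling. The 3 measured Sult1 genes on chromosome 5, Sult1b1, Sult1d1 and Sult1e1, also had positive differences, of 1.58, 0.61 and 0.53, and none passed in limma. Whether neighbours moved together was not tested. Gene order was taken from the RefSeq table of GRCm38.p6, and only measured genes were counted as neighbours.

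**Figure D3:**
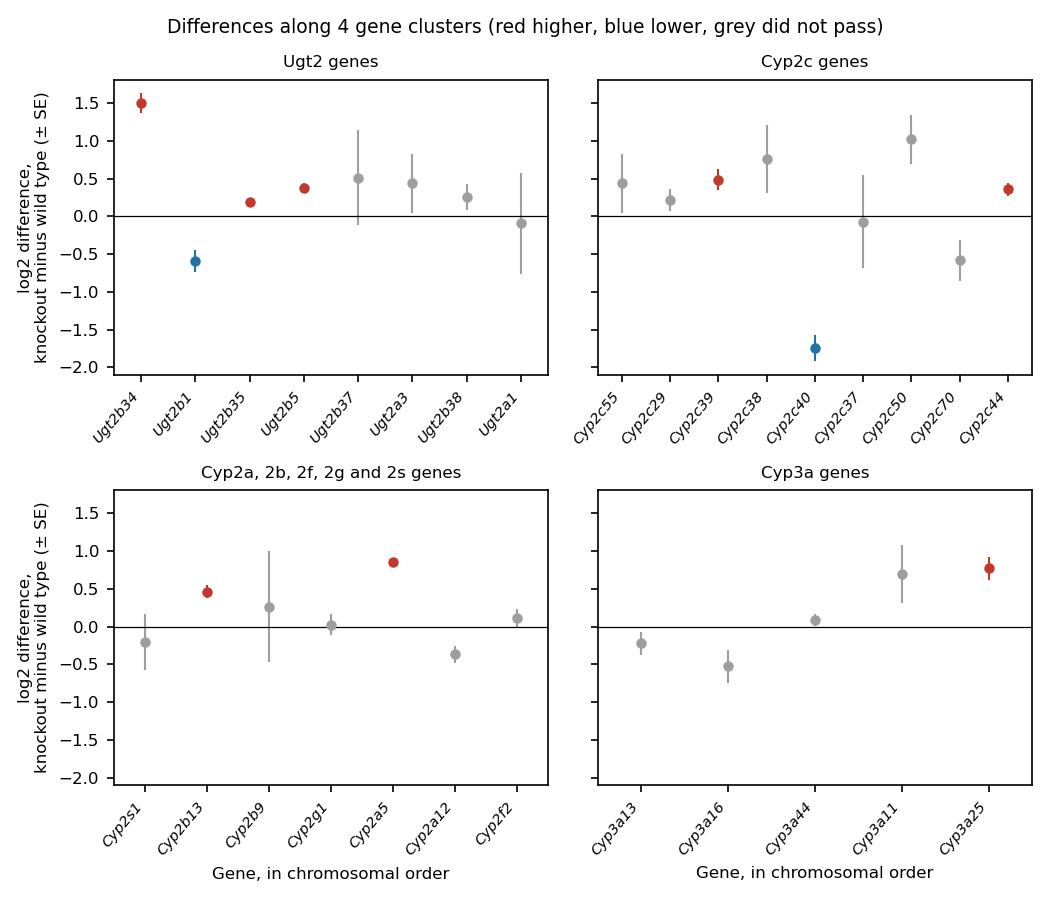
Log2 difference (KO minus WT, y axis, bars ± SE from limma) of the measured genes of 4 clusters, placed in chromosomal order and not to scale of distance (x axis). Called genes are red (higher) or blue (lower), and calls of both signs stand beside uncalled genes in the Ugt2 cluster, from 1.50 for Ugt2b34 to -0.59 for Ugt2b1, and in the Cyp2c cluster.

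Of the 9 sulfotransferase genes 1 passed, 11.1%, against 44.3% of all genes. The sulfotransferase probes were dim, with a median signal of 1.39, but the called gene had a mean signal of 6.58. No sulfotransferase with a mean signal below 3 passed, against 13.1% of all genes in that range. Sult5a1, a mouse sulfotransferase with no settled substrate, had signals of 6.74, 6.72 and 6.85 on the KO arrays and 6.31, 6.39 and 6.47 on the WT arrays, a difference of 0.38 ± 0.07 (SE; adjusted p = 0.00874). Sult2b1, which sulfates cholesterol and pregnenolone, had the largest difference of the 74 genes as deposited but did not pass. Its signals were 1.18, 2.72 and 2.81 in KO cells and 0, 1.12 and 0.22 in WT cells, and 2 of the WT values were the lowest of their arrays. The difference of 1.79 had an interval of 0.36 to 3.22 and an adjusted p of 0.0533 in limma. It was 0.96 with the constant added before taking logs, as for Ugt8a, where Cyp2c40 (-1.51) and Ugt2b34 (1.42) differed more, and 1.61 after quantile normalisation, where Cyp2c40 differed by -1.75. Sult1b1, which sulfates thyroid hormone and phenols, had 2.67, 1.31 and 2.41 in KO cells and 0, 1.43 and 0.22 in WT cells, with 2 WT values again the lowest of their arrays (adjusted p = 0.0686). Sult1c1 had 4.12, 3.59 and 4.31 in KO cells and 4.72, 4.77 and 4.39 in WT cells (adjusted p = 0.0796). The oestrogen sulfotransferase gene Sult1e1 ranged between 1.17 and 1.97 in KO cells and between 0.72 and 1.73 in WT cells. Sult4a1, known from brain, had 2.08, 1.95 and 2.72 in KO cells and 1.59, 0.42 and 2.06 in WT cells. The phenol sulfotransferase gene Sult1a1 had 3.51, 3.13 and 2.60 in KO cells and 3.0, 3.46 and 2.18 in WT cells. Apart from Sult5a1 and Sult2b1, and Sult1c1 in the opposite direction, the genotypes overlapped in every sulfotransferase.

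How often an enzyme passed followed its signal. Of the 74, 28 had a mean signal below 3, where 1 passed (Ugt8a, 3.57%), against 13.1% of the 4150 genes in that range. Between 3 and 5, 8 of 22 passed (36.4%), against 30.3% of all genes, and between 5 and 7, 11 of 18 (61.1%), against 55.6%. Above 7 the shares were 5 of 6 and 69.3%. Dim probes made up 37.8% of the enzymes and 25.2% of all genes. In total 14 enzymes lay at the lowest value of at least 1 array, and values there are only bounds.

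**Figure D4:**
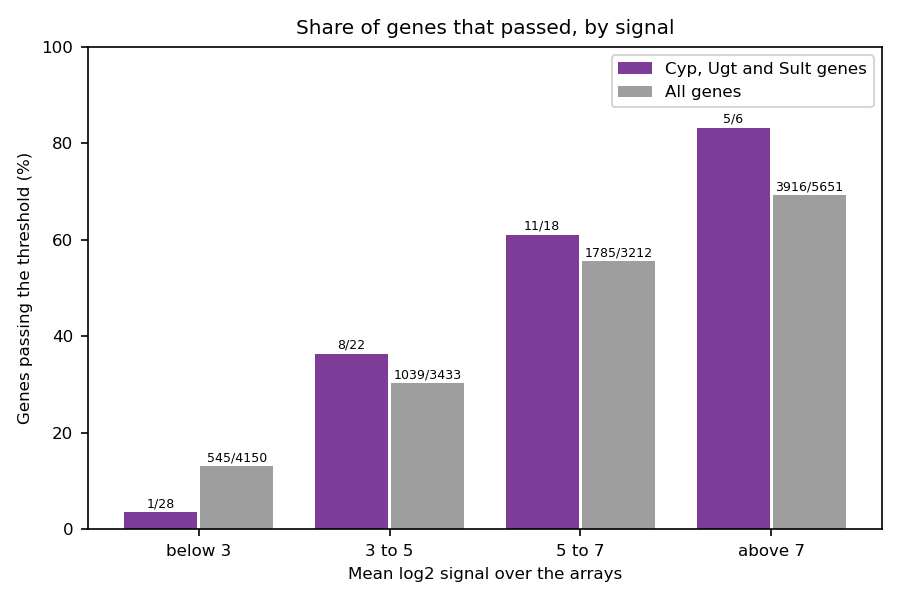
Share of genes that passed (y axis, percent) among the 74 enzymes (purple) and all 16446 genes (grey), by mean log2 signal over the 6 arrays (x axis), with counts above the bars. The share climbs with signal in both, and below a signal of 3 it was 3.57% for the enzymes and 13.1% for all genes.

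Enzymes that supply the members with electrons, haem or cosubstrates were described from lists written by function. Of 12 measured genes of haem synthesis and breakdown, 9 rose and none fell in limma, and 10 reached an unadjusted p of 0.05. This is 75% called, against 44.3% of all genes and 69.3% of genes with a mean signal above 7. The 9 rises included the breakdown genes Hmox1, Hmox2, Blvra and Blvrb, so the share is not one of haem supply alone. The list was bright, with a median signal of 8.44. Its median difference was 0.48 as deposited and 0.33 after quantile normalisation, where Blvra lost its call (adjusted p = 0.0764 in limma). Cpox, an enzyme of the late mitochondrial steps of haem synthesis, had signals of 6.56, 6.65 and 6.82 on the KO arrays and 4.55, 4.71 and 4.20 on the WT arrays, a difference of 2.19. The haem-degrading Hmox1 rose by 1.30 and the biliverdin reductase gene Blvrb by 0.82. Of 10 electron donors and carriers 4 rose and 1 fell, which is 50%, against the same 44.3% and 69.3%. The median difference of this list was 0.20 as deposited and 0.04 after quantile normalisation. Cyb5 (-0.23, adjusted p = 0.0116 in limma) and Cyb5r1 (-0.25, adjusted p = 0.00602) were then also called lower, so the balance of directions depends on the scaling. The mitochondrial ferredoxin Fdx1, which feeds Cyp27a1, rose by 1.11, Cyb5r4 by 0.66 and Pgrmc2 by 0.53. The P450 reductase Por, named after its value was seen because it serves the P450s of the endoplasmic reticulum, rose by 0.35.

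Among 5 genes of glucuronic acid supply and removal, 2 rose and 2 fell. This is 80% called, against 44.3% of all genes and 69.3% of genes with a mean signal above 7, and the list had a median signal of 10.67. After quantile normalisation Ugp2 was no longer called (0.05, adjusted p = 0.402 in limma). Ugdh was then called lower (-0.30, adjusted p = 0.00483), so the even split depends on the scaling. The carrier Slc35d1, which brings UDP-glucuronic acid into the endoplasmic reticulum, fell by 0.54 and Slc35b1 by 0.31, whereas the glucuronidase Gusb rose by 0.41. Of 11 genes of sulfate donor supply and sulfate metabolism, 5 rose and none fell in limma (45.5%, against 44.3% of all genes), and 5 reached an unadjusted p of 0.05. The sulfate donor synthases Papss1 and Papss2 rose by 0.57 and 0.43 and the carrier Slc35b3 by 0.38. Of 27 other oxidation, hydrolysis and conjugation enzymes, 13 rose and 1 fell, or 51.9%, against 44.3% of all genes. The alcohol dehydrogenase Adh7, which also oxidises retinol, had 5.48, 5.65 and 5.60 in KO cells against 3.26, 3.60 and 3.01 in WT cells, a difference of 2.29. The epoxide hydrolase Ephx1 rose by 1.30 and the aldehyde oxidase Aox1 by 1.18, whereas the epoxide hydrolase Ephx2, which acts on fatty acid epoxides and is named after its value was seen, fell by 0.86.

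The nuclear receptors and liver factors known to regulate these enzymes were split, with 6 of 24 higher and 6 lower, together 50%, against 44.3% of all genes. Nr5a1, the steroidogenic factor, had 2.29, 3.60 and 2.95 in KO cells and 0.40, 0.12 and 0.37 in WT cells, 1 of them the lowest of its array. It passed as higher (adjusted p = 0.00331 in limma), but the WT values lay too close to the lowest values of the arrays for the size to be given. Rxrg rose by 1.78, with 3.26, 3.95 and 3.21 in KO cells and 1.66, 2.24 and 1.18 in WT cells. These WT signals were dim, so the size for Rxrg is uncertain. Ppara, the fatty acid receptor, fell by 1.49, with 1.81, 3.06 and 2.90 in KO cells and 3.89, 4.05 and 4.28 in WT cells. The pregnane X receptor gene Nr1i2 and the constitutive androstane receptor gene Nr1i3 did not pass, at mean signals of 2.90 and 2.67 in KO cells and 3.82 and 1.61 in WT cells.

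**Figure D5:**
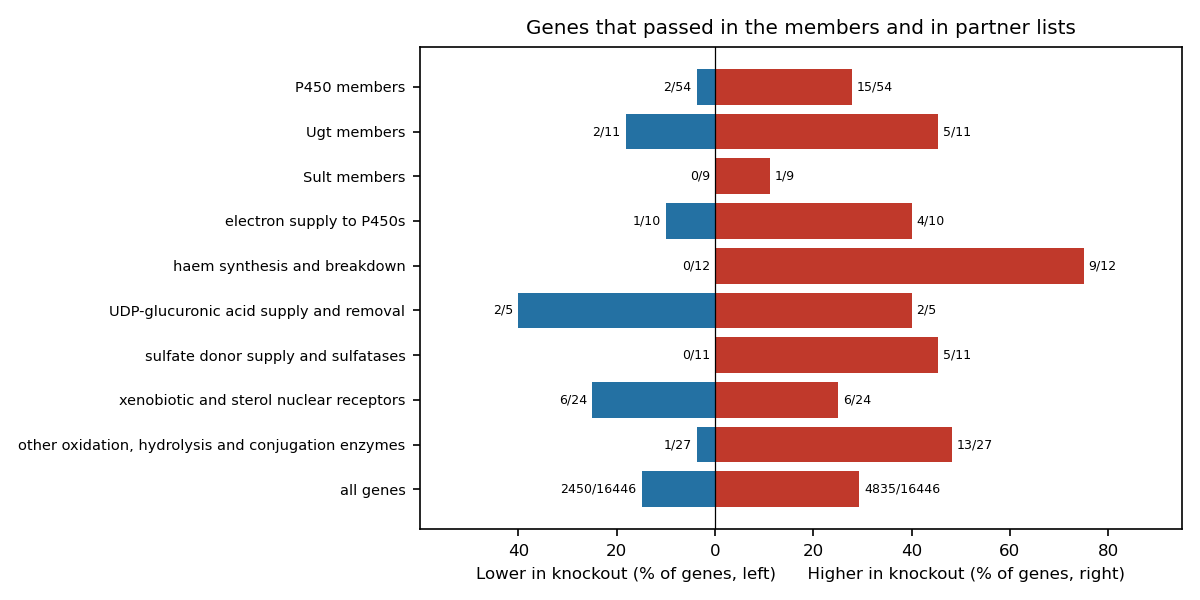
Percentage of genes called higher (red, right) and lower (blue, left) in KO cells in each enzyme family, in 6 lists of partner genes and in all genes, with counts beside the bars. The haem list has the highest share of rises, 9 of 12, and the nuclear receptor list has 6 in each direction of 24.

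Because most of these enzymes are hepatocyte genes, hepatocyte transcripts were read beside them. Of 27 listed hepatocyte markers 19 were measured, 6 rose, 3 fell and 10 did not pass (47.4% called, against 44.3% of all genes). Their summed linear signal was 3425 to 3569 on the KO arrays and 3091 to 3155 on the WT arrays, and none of them was at the lowest value on all 6 arrays. A linear sum is weighted to the brightest markers, whereas the median difference of the 19 was 0.05 as deposited and 0.06 after quantile normalisation. The transferrin gene Trf, the brightest hepatocyte marker, rose by 0.36, Pck1 rose by 0.71 and Tdo2 by 0.66, whereas Apoh fell by 0.63, and the hepatocyte factor Hnf4a averaged 3.87 ± 0.12 in KO cells and 3.93 ± 0.38 in WT cells (SD, n = 3). Alb was not among the probes used. Of the other cell type markers, 5 of 14 macrophage markers fell, among them C1qc (-1.32), Emr1 (-1.27) and Cd14 (-1.01). The 1 that rose was Clec4f (0.52), and 8 did not pass, among them Marco (-0.07), the brightest of the list. Of 12 endothelial markers 5 rose and 1 fell, among them Emcn (-1.63) and Fcgr2b (1.13). Vwf passed as higher too, but its WT signals were 0.63, 2.44 and 0.22, the last the lowest of its array, so its size is not given. The called shares were 42.9% of the macrophage and 50% of the endothelial markers, near the 44.3% of all genes. Of 7 cholangiocyte markers (42.9% called) Spp1 fell by 1.26 and Cldn4 by 0.60, whereas Onecut1 rose by 0.48. Of 23 stellate cell markers 15 rose and 4 fell, with Tagln at -2.45, Lrat at 2.41 and Col3a1 at 2.09. This is 82.6% called, against 44.3% of all genes and 69.3% of genes with a mean signal above 7. Their summed signal was 136700 to 144100 on the KO arrays and 108100 to 119500 on the WT arrays. That sum is weighted to the brightest genes, such as Vim, which differed by 0.61 as deposited and by 0.15 after quantile normalisation. The median difference of the stellate markers was 0.54 as deposited and 0.30 after quantile normalisation. The part of these cell types in the differences of the enzymes was not tested. In such bulk samples fewer cells of a type and less RNA per cell cannot be told apart.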

How the data were processed

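Messenger RNA of stellate cells was measured on 6 single-colour arrays (Cy5), 3 KO and 3 WT. Per the labels, the deposited values had been quantile normalised. Their log2 scale was taken from the range of the deposited values, since no log base is given in the sources used here. The array medians were all 5.02, whereas the highest values were 16.6 to 16.8 on the KO arrays and 15.7 to 15.8 on the WT arrays. The deposited arrays thus did not share a common distribution, unlike values quantile normalised across all 6. Pearson correlations across probes were 0.981 to 0.982 between KO arrays, 0.986 between WT arrays and 0.967 to 0.971 between genotypes. Precision is limited by the number of arrays. The labels' labelling protocol refers to tumour tissue and a microRNA kit, unlike the stated design. No probe is annotated as Sept4, so its removal was not checked on these arrays.

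Probes were named from the platform annotation (16631 with 1 symbol, 6842 with none, 0 with several). Of the 74 symbols, 73 matched a current RefSeq symbol and 1 a synonym. KO was compared with WT with lmFit and eBayes in limma 3.58.1 (R 4.3.3), two-sided, over all 23473 probes without further normalisation, and tested on simulated data. Intervals are 95% confidence intervals of the fit. In the text, roles with a call of at least 2-fold have those genes given array by array, other roles the 2 genes with the smallest p, and every called gene and the 5 brightest are named. In partner and marker lists, up to 3 called genes by size are named. Some further genes of these lists, such as Cyb5, Cyb5r1, Hmox2, Clec4f and Marco, are named after their values were seen. The values of some further uncalled enzymes (such as Cyp2e1, Cyp3a11 and Cyp7a1) are given after they were seen. The members, roles and lists were chosen with earlier results of these data known. Figures were drawn with matplotlib 3.10.9.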

Additional observations from a re-analysis of the deposited data

How the results depend on the processing

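The counts of enzymes that rose and fell were recomputed under 17 alternatives. The count of rises stayed within 1.5 times of 21 in each of them. The count of falls, 4, was 1 without the dimmest 50% of probes, where 24 of the 74 enzymes were left, and 7 with a trended and robust variance prior. The median log2 difference of 0.31 moved by more than its spread between arrays, to 0.20 after quantile normalisation, 0.17 after cyclic loess, 0.23 without the dimmest 25% of probes, 0.38 without the dimmest 50%, 0.25 without every probe that reached the lowest value of an array and 0.22 with the linear offset. The fits without 1 array gave 18 to 22 rises, 3 to 5 falls and medians of 0.27 to 0.34. No called enzyme turned its direction in any alternative. Of the 25 calls, 17 were kept wherever the gene was still tested, and 8 were lost in at least 1 alternative: Cyp2u1, Cyp2c39, Cyp2d26, Cyp2c44, Cyp3a25, Cyp4f13, Ugt2b35 and Ugt2b1. The cause was not tested. Of 15 enzymes gained in some alternative, Cyp2j6, Cyp2d10 and Cyp2a12 were gained in 5 each. With the replicate number as a block, 19 enzymes rose and 4 fell, the median stayed 0.31, and over all probes 7724 were called against 10025 without it. Deviations of same-numbered KO and WT arrays correlated at -0.002 to 0.0077. KO array 2 and KO array 3 did not correlate best with their own numbers, so the numbers do not show a pairing. Cyp3a25 lost its call with that block (adjusted p = 0.0578 in limma). Over all probes, 62.6% of calls were higher in KO as deposited and 52.5% after quantile normalisation. Dim signal limits the result for 28 of the 74 enzymes, which had a mean signal below 3.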
